A study of Mus musculus with 45 samples.

Results

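REV-ERBα binding sites at the end of a single gene were taken from the ZT10 peak list of mouse liver, where ZT10 is hour 10 of the light-dark cycle. A peak was kept when its summit, the position of highest signal, lay on chromosomes 1 to 19 and within 1 kb of an end of exactly 1 protein-coding gene span. This gave 5375 of 27929 peaks, at 5065 genes. Both gene ends and both sides of an end count, so the choice used position and not strength.

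The series holds 45 samples in 18 groups, of which 8 samples in 2 groups are used here. They are livers of REV-ERBa3HA/3HA mice, which carry a 3HA epitope tag on both copies of the endogenous receptor gene. They received no AAV vector, and chromatin was captured with anti-HA beads from 4 samples at ZT10 and 4 at ZT22. Age and sex are not given in the sources used here. Peaks come as 1 list per time, made from 4 samples together, so a peak has 1 value and no spread between samples, and no test between peaks or times was made. Liver nuclei were used whole, so a site used in few cells and a site weakly occupied in many cannot be told apart. The 37 other samples, which include input chromatin and untagged liver, were not analysed here.

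REV-ERBα is a nuclear receptor without an activation helix, and it represses transcription by bringing the NCOR corepressors and the deacetylase HDAC3 to DNA. It recognises the core motif AGGTCA preceded by an A and T rich stretch, and its abundance in liver peaks in the light phase. It closes a loop of the circadian clock by repressing the genes of clock activators. It is also found at promoters that lack its motif, held there by contacts with other factors. Promoters of broadly active genes are usually rich in CpG dinucleotides, whereas many promoters of hepatocyte genes are not.

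Promoter windows are shown for the 4 strongest gene-end peaks whose summit fell in the window, as examples of strong sites. They run from 250 bases before an annotated start to 50 after it, written 5′ to 3′ along the gene. Capitals mark the core motif AGGTCA, the E-box CACGTG, the GC box GGGCGG, the TATA motif TATAAA and the NRF1 motif, whose letters are the capitals of the Rpl10a window, on either strand, with AGGTCA extended where the receptor's longer response element was found. That element is spelled here as AGGTCA with AANT directly before it. The windows were read from RefSeq, build GRCm38.p6 (mm10 positions).
Nr0b2, chr4:133553126-133553425, plus strand: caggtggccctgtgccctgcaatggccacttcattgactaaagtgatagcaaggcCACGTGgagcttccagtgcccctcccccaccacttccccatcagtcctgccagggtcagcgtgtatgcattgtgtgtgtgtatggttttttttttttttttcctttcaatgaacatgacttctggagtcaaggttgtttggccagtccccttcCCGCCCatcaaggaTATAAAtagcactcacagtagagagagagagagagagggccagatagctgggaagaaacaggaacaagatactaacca
Pla2g6, chr15:79328322-79328621, minus strand: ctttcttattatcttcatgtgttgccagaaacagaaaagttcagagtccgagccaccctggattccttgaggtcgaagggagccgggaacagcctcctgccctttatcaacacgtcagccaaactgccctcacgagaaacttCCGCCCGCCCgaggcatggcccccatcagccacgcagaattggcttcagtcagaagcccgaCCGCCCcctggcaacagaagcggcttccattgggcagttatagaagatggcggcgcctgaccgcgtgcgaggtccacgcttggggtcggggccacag
Nr1d1, chr11:98775328-98775627, minus strand: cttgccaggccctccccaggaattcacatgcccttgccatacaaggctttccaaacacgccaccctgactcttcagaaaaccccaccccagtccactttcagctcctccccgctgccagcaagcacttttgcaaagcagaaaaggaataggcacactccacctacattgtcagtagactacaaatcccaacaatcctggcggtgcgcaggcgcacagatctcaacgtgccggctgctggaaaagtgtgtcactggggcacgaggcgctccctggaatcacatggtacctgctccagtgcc
Bhmt, chr13:93637709-93638008, minus strand: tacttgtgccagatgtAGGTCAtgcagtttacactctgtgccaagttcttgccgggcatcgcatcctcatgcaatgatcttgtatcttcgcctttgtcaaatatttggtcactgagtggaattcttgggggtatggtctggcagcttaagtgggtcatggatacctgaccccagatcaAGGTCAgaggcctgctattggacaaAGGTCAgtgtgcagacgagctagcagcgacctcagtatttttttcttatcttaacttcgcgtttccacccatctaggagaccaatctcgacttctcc

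The Bhmt window holds AGGTCA at 3 places, while the Nr0b2, Pla2g6 and Nr1d1 windows hold none. Nr0b2 has 1 E-box, 1 GC box and 1 TATAAA, Pla2g6 has 3 GC boxes, and the Nr1d1 window has none of the motifs marked. No match says only that these exact letters are not in the window, since copies with changed letters were not searched.

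For contrast, the windows of the 2 cytosolic ribosomal protein genes with the strongest summit inside the window follow. They are examples at broadly active genes of sites weaker than those above. The folds were 8.65 at Rpl10a and 6.55 at Rps12, both above the median of 6.21 of all gene-end peaks.
Rpl10a, chr17:28328315-28328614, plus strand: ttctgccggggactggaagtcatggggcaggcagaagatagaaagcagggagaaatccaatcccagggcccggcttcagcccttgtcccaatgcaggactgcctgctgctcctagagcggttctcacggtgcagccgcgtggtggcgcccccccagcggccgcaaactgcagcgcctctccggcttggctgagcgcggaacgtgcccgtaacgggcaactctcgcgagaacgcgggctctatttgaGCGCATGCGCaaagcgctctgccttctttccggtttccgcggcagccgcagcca
Rps12, chr10:23787160-23787459, minus strand: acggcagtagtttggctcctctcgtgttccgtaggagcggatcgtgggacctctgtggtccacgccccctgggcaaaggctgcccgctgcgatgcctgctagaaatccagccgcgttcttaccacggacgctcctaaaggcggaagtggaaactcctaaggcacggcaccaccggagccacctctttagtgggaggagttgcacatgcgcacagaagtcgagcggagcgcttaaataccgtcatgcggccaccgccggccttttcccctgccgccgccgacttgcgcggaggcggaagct

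They hold 27 (Rpl10a) and 29 (Rps12) CpG dinucleotides. The strong windows hold 3 (Nr0b2), 8 (Bhmt), 9 (Nr1d1) and 19 (Pla2g6). Rpl10a has 1 motif of the broadly acting activator NRF1, and Rps12 has none of the motifs marked.

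The windows of 2 genes with strong sites held the extended response element of REV-ERB and ROR receptors, and they are shown because it is the receptor's own motif. They were chosen after the motif counts were seen.
Leo1, chr9:75441274-75441573, plus strand: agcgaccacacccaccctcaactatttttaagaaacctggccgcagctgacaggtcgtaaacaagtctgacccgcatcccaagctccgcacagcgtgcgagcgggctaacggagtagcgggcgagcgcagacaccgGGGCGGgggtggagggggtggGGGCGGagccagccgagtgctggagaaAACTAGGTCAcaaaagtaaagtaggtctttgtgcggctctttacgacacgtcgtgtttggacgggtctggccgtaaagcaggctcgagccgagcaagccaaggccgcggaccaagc
Apoh, chr11:108395047-108395346, plus strand: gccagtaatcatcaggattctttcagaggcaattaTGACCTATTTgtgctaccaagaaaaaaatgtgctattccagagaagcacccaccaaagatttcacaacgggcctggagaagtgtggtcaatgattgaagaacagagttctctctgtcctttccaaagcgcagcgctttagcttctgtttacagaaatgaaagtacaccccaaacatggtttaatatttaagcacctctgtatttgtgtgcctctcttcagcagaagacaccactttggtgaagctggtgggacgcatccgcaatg

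Apoh encodes a plasma glycoprotein made by hepatocytes and Leo1 a subunit of the PAF complex of transcription elongation. Their peaks had folds of 16.0 and 16.2, and their windows hold 5 and 26 CpG dinucleotides.

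Gene-end peaks sat mostly at gene starts. The strand of the gene was known for 4307 of the 5375 (80.1%), and of these 3938 lay at the 5′ end (91.4%, 95% exact Clopper-Pearson interval 90.6 to 92.3) and 369 at the 3′ end. At the 5′ end the median summit was 92 bp inside the gene, with quartiles at -129 and 335 bp, and 62.1% of summits were on the gene's side of the start. The fullest 100 bp stretch was that from 0 to 100 bp inside, with 511 summits, against 18 between 900 and 1000 bp upstream. An annotated start of the same gene lay within 1 kb of 96.2% of these summits and within 150 bp of 37.3%. No such pile-up was seen at 3′ ends, where each 100 bp held 10 to 32 summits. Of the 3′ summits, 13 lay within 1 kb of an annotated start of any gene (3.52%). The table of starts is not complete, so this last share is a lower bound. Of the strong sites defined below 190 of 227 lay at the 5′ end (83.7%, interval 78.2 to 88.3), and of the weak ones 1004 of 1108 (90.6%, interval 88.7 to 92.3).

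**Figure D1:**
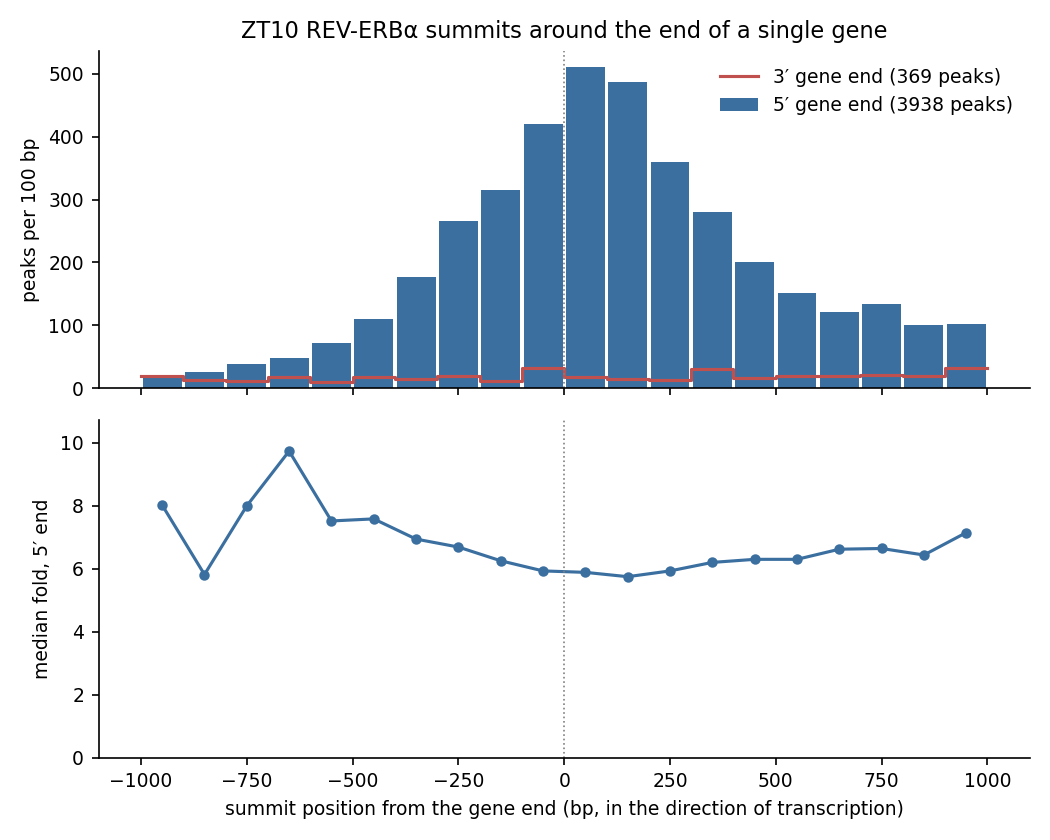
Summits per 100 bp around the gene end for 5′ ends (bars) and 3′ ends (line), and the median fold of 5′ peaks in each 100 bp, with negative positions before the end in the direction of transcription. The 5′ summits pile up at 0 to 200 bp inside the gene, with median folds of 5.89 and 5.75 there, while the 3′ summits number 10 to 32 per 100 bp throughout.

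Fold here is the authors' enrichment of the summit over its local background. The gene-end peaks had folds from 4.01 to 77.7, with a median of 6.21 (95% order-statistic interval 6.12 to 6.30) and with 10% of peaks under 4.33 and 10% over 12.3. Counting a fold of at least 15 as a strong site, 295 were strong (5.49%, 95% interval 4.89 to 6.13), where 11.0% of all ZT10 peaks on these chromosomes were. Counting a fold under 5 as a weak site, 1396 were weak (26.0%), where 24.2% of all ZT10 peaks were. The share of strong sites was 2.23% among the 1074 peaks near ends of 2 or more genes, 10.96% among the 12225 inside a gene and over 1 kb from an end, and 15.6% among the 8948 outside genes and over 1 kb away. Medians in these classes were 6.01, 6.95 and 7.45. The classes lay apart in the upper part of the range: the 10th percentiles were 4.33, 4.37, 4.33 and 4.37, from single ends to peaks outside genes, and the 90th percentiles 12.3, 9.47, 15.4 and 18.02. No peak of the list had a fold below 4, so the 10th percentiles are held near that floor in every class. Local background was raised by over 5% above its lowest value in 13.2% of gene-end peaks and in 12.2% of all ZT10 peaks, and its part in these folds was not tested.

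**Figure D2:**
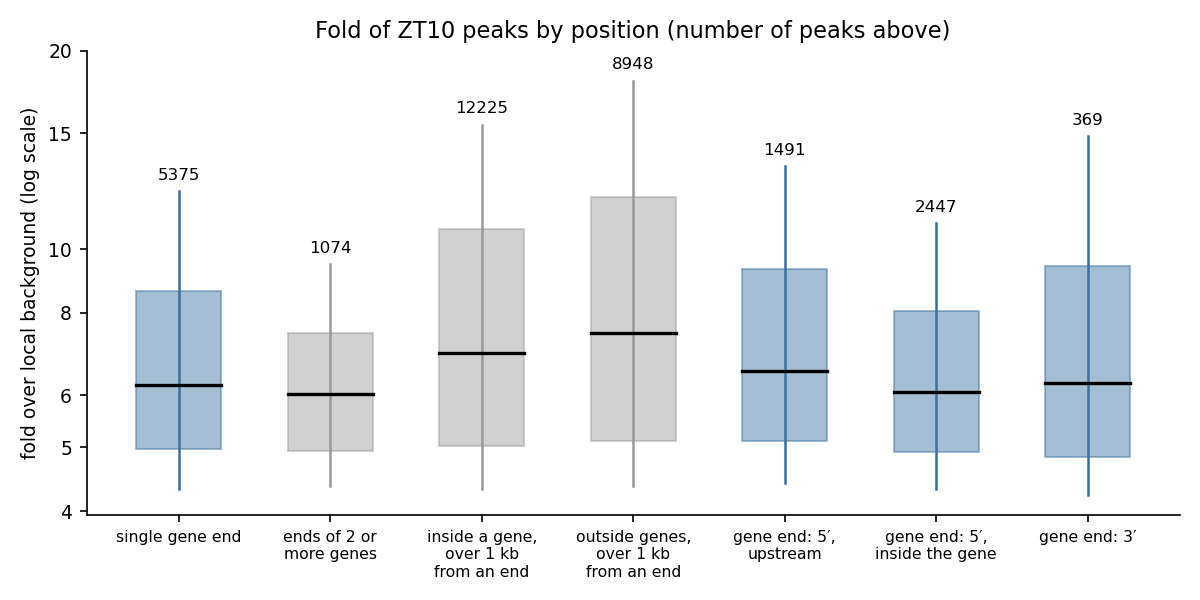
Fold of ZT10 peaks by position on a log scale, with the median (black line), the quartiles (box) and the 10th and 90th percentiles (line), and the number of peaks above. The gene-end classes (blue) and the classes away from single gene ends (grey) start from like low values, and the upper end is lowest where 2 or more genes meet, at 9.47.

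Strength differed with the side of the start. Upstream 5′ summits had a median fold of 6.53 and 7.24% of them were strong, against 6.07 and 3.35% for 5′ summits inside the gene. Among strong 5′ sites 108 of 190 lay upstream (56.8%, 95% interval 49.5 to 64.0), and among weak 5′ sites 341 of 1004 (34.0%, interval 31.0 to 37.0). The median position was -89.5 bp for strong sites, upstream of the start, and 104.5 bp inside the gene for weak ones. Summits within 250 bp of an end had a median fold of 5.98, those 250 to 500 bp away 6.49, and those 500 to 750 and 750 to 1000 bp away 6.90 and 6.72. Arid5b and Smyd1 lay just inside the 1 kb limit with folds of 13.7 and 7.91, and peaks near Lrba, Mycl and Hectd2 lay just outside with 5.80, 5.20 and 5.02. All of these summits were within 2 bp of the limit.

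The 20 strongest gene-end peaks had folds from 29.4 to 77.7. Npas2, which encodes a BMAL1 partner, led with a fold of 77.7 in a peak of 12080 bp on chromosome 1 from 39184896 to 39196975. Rnase10, a ribonuclease A family gene known from the epididymis, followed with 42.4 on chromosome 14 from 51006390 to 51011120. Coq8a, whose product supports ubiquinone synthesis, had 38.6 on chromosome 1 from 180184414 to 180199527. Cbs, the enzyme that starts transsulfuration of homocysteine, had 36.5 on chromosome 17 from 31627165 to 31640629. Nr0b2, the bile acid feedback repressor SHP, had 36.4 on chromosome 4 from 133550791 to 133565820. Pla2g6, a phospholipase gene, and Socs2, a growth hormone signalling inhibitor, each had 36.1.

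The rest of this set included Nr1d1 (35.9), the receptor's own gene, Pnrc1 (34.5), a nuclear receptor coregulator gene, and Fpgs (34.1), which encodes folylpolyglutamate synthase. Bhmt, the betaine-dependent homocysteine methyltransferase, had 32.7. Banf2 had 32.3, Nrep 32.2, Tmbim6, the gene of an endoplasmic reticulum protein that opposes cell death, 31.8, Pnpla3, a lipid droplet hydrolase gene, 31.8 and Abcb11, the bile salt pump, 31.2. Lbp (30.9), an acute phase protein gene, Irs2 (30.8), an insulin receptor adaptor gene, Gfod1 (30.8) and Fam25c (29.4) closed this set. Of the 20, 14 were at 5′ ends, 1 at a 3′ end (Banf2) and 5 at genes whose strand was not in the table. Summits of 15 lay outside the gene span, and 14 were the strongest peak within 50 kb. Where they were not, as at Rnase10, Coq8a, Bhmt, Pnpla3, Abcb11 and Irs2, a stronger ZT10 peak stood within that distance.

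The weakest gene-end peaks all had the same lowest fold, 4.01, close to the floor of the list, and 64 peaks shared it. The first 6 by name were at Abhd17a, Ank, Ano6, Aopep, Aspdh and Bak1. Ank encodes a pyrophosphate transporter and Bak1 a pore-forming protein of mitochondrial apoptosis. Each of these 6 summits rested on 83 fragments, as worked out from fold and p, against 1708 at Npas2. A weak peak can stand at a gene with a strong one, since Aopep also had a peak of 16.5 at its 3′ end. Of the 64, 47 lay at a 5′ end and 11 were the strongest peak within 50 kb. Across gene-end peaks the summits held 83 to 1708 fragments with a median of 136, so relative counting error is largest for the weak sites.

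Width went with fold, though both are read from the same signal and are not independent measures. Gene-end peaks were 200 to 26177 bp wide, with a median of 1635 bp (95% order-statistic interval 1595 to 1680), and the median of all other ZT10 peaks was 1697 bp. The correlation of fold and width was 0.77 (Spearman's rho across the 5375 peaks, which share 1 pooled list), against 0.78 across the other 22247 peaks. Median width was 895 bp for weak sites, 1718 bp at folds of 5 to 10, 3390 bp at 10 to 15 and 5000 bp for strong sites. Of the 41 peaks over 10 kb, 30 were strong, and of the 190 under 500 bp none was. The interval covered the gene end itself in 88.3% of cases, and it covered the whole gene at only 97 of the 5375 peaks.

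The 5 widest peaks were at Ahsg (26177 bp, fold 16.0), Sh3pxd2a (21920 bp, 13.1), Dhrs3 (19167 bp, 26.5), Tmbim6 (18242 bp, 31.8) and Fam25c (18126 bp, 29.4). Ahsg encodes fetuin A, a plasma protein made by hepatocytes, and the peak covered its whole span of 7437 bp. Dhrs3 encodes a retinaldehyde reductase. At the other end, 5 peaks were 200 bp wide, at Cd209f, Fam207a, Fan1, Nt5c1b and Snx21. All 5 lay at 3′ ends, with folds of 4.10, 9.89, 4.47, 6.72 and 4.05. Fam207a and Nt5c1b thus had folds above the median of all gene-end peaks in the narrowest intervals. Local background was 1.45 times the lowest at Nt5c1b and not raised at Fam207a.

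**Figure D3:**
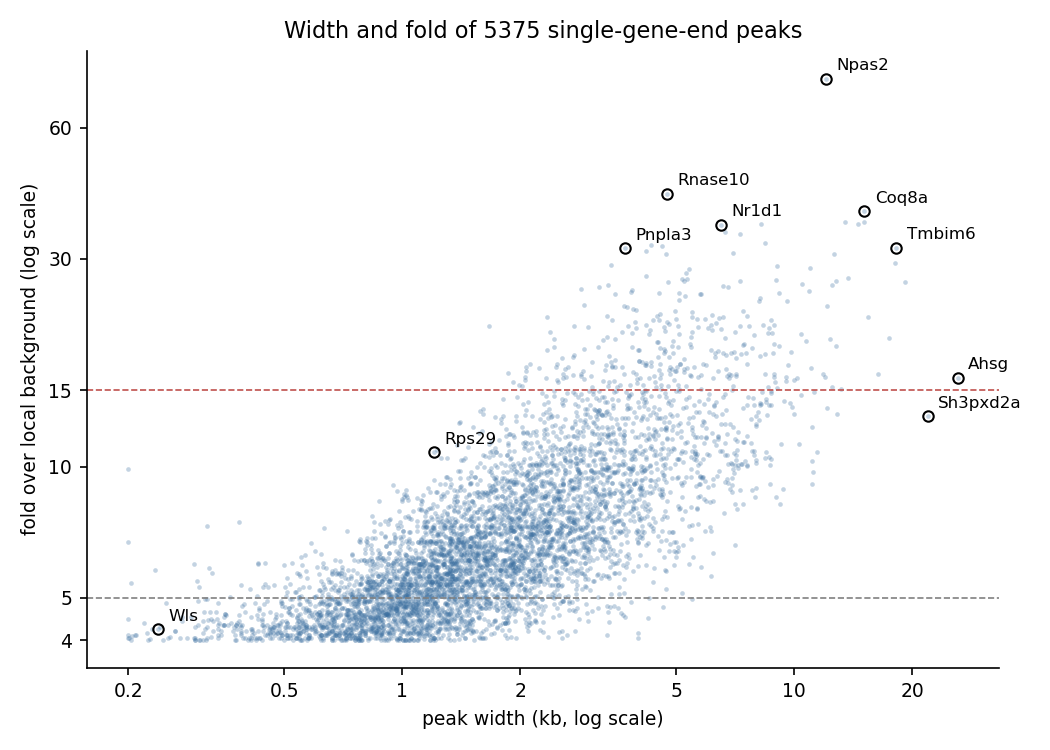
Width and fold of the 5375 gene-end peaks on log axes, 1 point per peak, with dashed lines at folds of 5 and 15 and named peaks circled. Width goes with fold (Spearman's rho 0.77), and Npas2 stands alone at 77.7 while Ahsg and Sh3pxd2a are wide for their folds of 16.0 and 13.1. Local background was 1.21 times the lowest at Ahsg and 1.69 times at Sh3pxd2a, and its part in these folds was not tested.

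Gene lists showed where strong and weak sites fell. Over all 20665 protein-coding genes on these chromosomes 24.5% had a gene-end peak, 1.42% had a strong one and 6.56% a weak one. Below, a gene with several peaks counts by its strongest, so that a weak gene has no peak of fold 5 or more. The median over the 5065 genes was then 6.30, with 293 of them strong (5.78%) and 1235 weak (24.4%). Of the 293 strong genes 44 are in a list given by symbol, so most strong sites lay outside these lists. Of the 34 lists, 26 had a higher share of genes with a peak than all genes did. Each list's count is given without a test. Lists are broader than their names, and genes that act beside the named process, such as Pdk4, Pnpla3 and Socs2, count in them.

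Core clock genes had a gene-end peak at 13 of 19, with a median fold of 14.1, and 5 were strong. After Npas2 and Nr1d1, Clock, the other BMAL1 partner, had a fold of 21.5 in a peak 443 bp from its 5′ end. Ciart (19.9) and Bhlhe41 (15.8), which encode repressors in the loop, were the other strong members. Nr1d2, the gene of REV-ERBβ, had 14.6. The period gene Per1 had 11.8 and Per2 14.1. Among genes for the turnover of clock proteins Csnk1d had 11.4, Btrc 4.83 and Csnk1e 4.56. Clock output factors had a peak at 6 of 10 genes, among them Hlf (16.4), a PAR bZIP activator, Klf15 (12.8) at its 3′ end and Nampt (10.9), the NAD salvage enzyme, while Usp2 had 4.70. Corepressor genes had one at 4 of 9, where Tbl1xr1 had 20.8 and Hdac1, Hdac2 and Rcor1 had 5.39, 5.16 and 4.93.

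Hepatocyte transcription factor genes had a gene-end peak at 10 of 24, with a median fold of 9.82 and none weak. Nr5a2, the gene of the bile acid and cholesterol regulator LRH-1, had 18.2 in a peak of 8813 bp, and Nfib had 16.1. Nr1h4, the bile acid receptor FXR, had 11.3, and Nfix had the lowest, 5.89. The median width in this list was 8166 bp, against 1683 bp over all genes with a gene-end peak.

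Secreted and metabolic hepatocyte genes follow, list by list. Plasma protein genes had a gene-end peak at 16 of 27 with a median of 12.2, and 6 were strong. They were Itih2 (28.5), Kng1 (16.2), Hp (16.1), Ahsg (16.0), Apoh (16.0) and Ttr (15.8), while Alb, the gene of albumin, had 7.27 and C3 4.14, at its 3′ end. In bile acid synthesis and transport 11 of 19 had one, with a median of 11.6 and 4 strong. After Nr0b2 and Abcb11 these were Cyp7a1, the rate-limiting enzyme of bile acid synthesis, at 20.4, and the sterol exporter gene Abcg5 at 17.8. Cyp7b1, of the alternative pathway, had 4.05.

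Glucose and glycogen genes had a peak at 17 of 25, with a median of 12.9, 5 strong and none weak. Ppp1r3b, a glycogen-targeting phosphatase subunit, had 21.97, Pck1, the PEP carboxykinase of gluconeogenesis, 21.2, and Gckr, the glucokinase regulator, 21.1. A further peak at the 3′ end of Pck1 had 4.24. Urea cycle and amino acid genes had one at 17 of 24, with a median of 10.8 and 6 strong, led by Cbs, Hal (26.0), the histidine ammonia-lyase, and Hgd (18.2), of tyrosine breakdown. The peak at the 3′ end of Got1 had 4.47.

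Lipid lists differed in their strong sites. Fatty acid oxidation and ketogenesis had a peak at 14 of 25 genes, with a median of 12.6 and 5 strong, led by Pdk4, the pyruvate dehydrogenase kinase, at 25.9, Acadm at 21.1 and Etfa at 20.6. Acadm, a medium-chain acyl-CoA dehydrogenase gene, also had the weakest peak of the list, 4.05 at its 3′ end. Fatty acid and triglyceride synthesis had one at 17 of 25, with a median of 9.47 and 3 strong, Pnpla3, the elongase gene Elovl6 (21.7) and the desaturase gene Fads2 (15.4). Thrsp, a lipogenic regulator gene, had 4.74, at its 3′ end. Cholesterol synthesis had one at 19 of 24 (79.2%, and 62.5% with peaks of a −log10 q of at least 10 only), with a median of 6.90, none strong and 5 weak. Among its stronger sites were Hmgcs1 (12.6, at the 3′ end) and Mvd (9.69), and its weakest was Dhcr7 (4.24), beyond the 3′ end. Cytochrome P450 and xenobiotic genes had one at 8 of 28, with a median of 11.1 and none strong, led by Cyp2a5 (14.1, at the 3′ end), Cyp2c29 (12.6) and Ugt2b1 (12.2). The weakest peak of this list, 4.83, lay at the 3′ end of Cyp51.

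Inflammation and acute phase genes had a peak at 10 of 18, with a median of 11.7 and 4 strong, Socs2, Lbp, Saa3 (25.1) and Crp (18.4), while Lcn2 was at the floor of 4.01. Autophagy genes had one at 13 of 22, with a median of 6.81, and Gabarapl1 was the strong member at 16.9, followed by Bnip3 at 14.2 and Atg10 at 8.003. Gabarapl2 was lowest, at 5.29. Of unfolded protein response genes 12 of 18 had one, with a median of 7.22. Atf3, a stress-induced factor, had 17.97 at its 5′ end and 12.6 at its 3′ end, Pdia4, a disulfide isomerase gene, 10.4 and Dnajb9 the lowest, 4.88. Heme genes had one at 6 of 12, with a median of 6.88 and none strong, led by Cpox (9.84), Fech (8.28) and Hmox2 (6.95).

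Families of broadly active genes had medians of 5.02 to 6.05. Cytosolic ribosomal protein genes had a gene-end peak at 49 of 80, with a median of 5.48, none strong and 15 weak, led by Rps29 (10.8) and Rpl3 (9.01). Local background at Rps29 was 2.42 times the lowest. Oxidative phosphorylation subunit genes had one at 35 of 84, with a median of 5.16 and 16 weak, led by Ndufa6 (8.74) and Ndufs4 (8.46). Mitochondrial ribosomal protein genes had one at 23 of 78 (median 5.66), led by Mrpl15 (8.78) and Mrpl35 (8.003), and proteasome genes at 15 of 38 (median 5.02), led by Psmb6 (8.55) and Psmb10 (8.10). General transcription and splicing factors had one at 22 of 62 (median 5.55), led by Gtf2a1 (13.1) and Gtf2b (8.83), and aminoacyl-tRNA synthetases at 12 of 35 (median 6.05), where Tars had 20.96 at its 5′ and 9.75 at its 3′ end. Over these 6 families 1 of 156 genes with a peak was strong (0.641%) and 56 were weak (35.9%), with a median of 5.36. Over the 8 lists of plasma proteins, xenobiotic, bile acid, fatty acid (both), cholesterol, glucose and amino acid genes 29 of 118 were strong (24.6%) and 10 weak (8.47%), with a median of 10.3. This grouping of lists was made after their values were seen.

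Many genes of these families sit within 1 kb of another gene and are left out by the rule. With a summit within 1 kb of an end whatever the number of genes, the share was 67.9% in place of 29.5% for mitochondrial ribosomal, 76.2% in place of 41.7% for oxidative phosphorylation, 62.9% in place of 34.3% for aminoacyl-tRNA synthetase and 62.9% in place of 35.5% for general transcription genes, where that of all genes was 33.9% in place of 24.5%. With peaks of a −log10 q of at least 10 only, it was 23.8% for oxidative phosphorylation and 21.1% for proteasome genes, and 18.7% for all genes.

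Of 79 marker genes of Kupffer, stellate, endothelial, cholangiocyte and lymphoid cells and of neurons 6 had one (7.59%), and none was strong. They were the cholangiocyte genes Sox9 (10.4) and Sctr (9.06), the endothelial genes Fcgr2b (7.04) and Dnase1l3 (4.47), the macrophage gene Mpeg1 (4.88) and the stellate gene Reln (4.02). The cholangiocyte list had 2 of 9 (22.2%), below the 24.5% of all genes but above the 18.7% of all genes when only peaks of a −log10 q of at least 10 are taken, where it kept 22.2%. Lymphocyte markers had 0 of 12 (95% interval up to 26.5%) and neuronal genes 0 of 19 (up to 17.6%). Of 1100 olfactory receptor genes 1 had a peak, Olfr1443, at 4.83. The plasma protein genes that mark hepatocytes, the main cell of the labelled tissue, had a peak at 16 of 27.

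**Figure D4:**
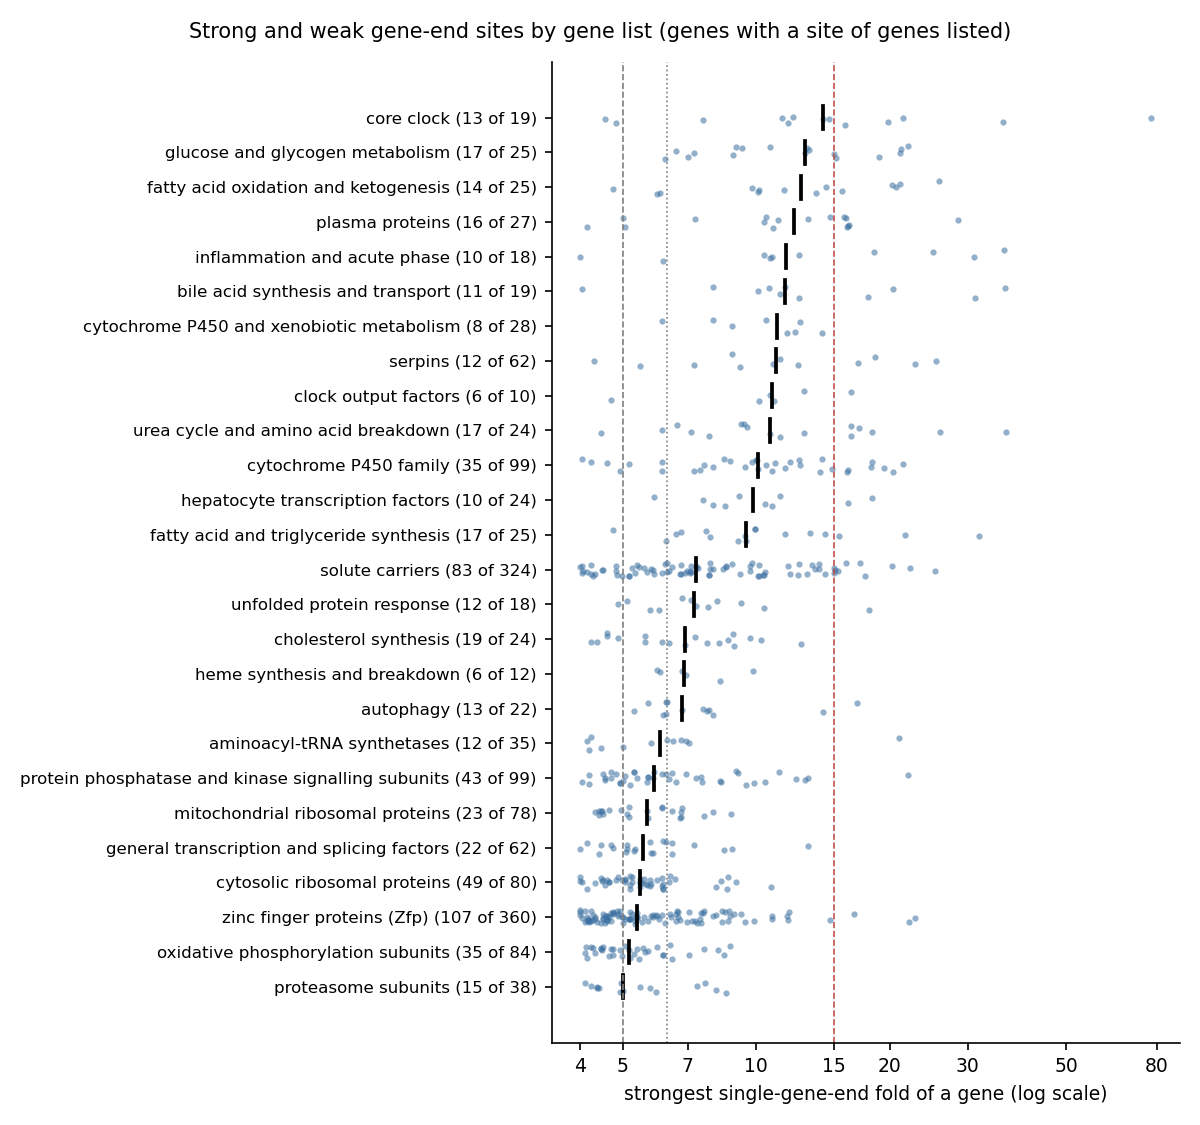
Strongest gene-end fold of each gene (points) and the median (black bar) for lists with at least 5 genes that have a site, on a log scale, with lines at folds of 5, 6.30 (the median of all genes with a site) and 15. Core clock genes lie highest with a median of 14.1, and proteasome and oxidative phosphorylation genes lowest with 5.02 and 5.16.

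Promoter sequence differed between strong and weak sites. Windows were found for 3698 genes with a 5′ gene-end peak and an annotated start within 1 kb of it, and 20085 windows of all protein-coding genes served as background. A CpG ratio, the observed over the expected number of CpG, of under 0.4 was found in 6.49% of the 909 weak windows, 8.22% at folds of 5 to 10, 21.2% at 10 to 15 and 33.9% of the 177 strong windows, against 38.4% of all windows and 50.8% of the windows of genes with no ZT10 summit within 1 kb of an end. The median number of CpG in 300 bases was 22 in weak and 14 in strong windows, and median GC content 61.3% and 57.3%. Read the other way, genes with a ratio under 0.4 had a median fold of 8.62 and 15.4% strong sites (60 of 390), and the others 6.12 and 3.54% (117 of 3308). The 6 families of broadly active genes had a ratio under 0.4 at 2 of 119 windows and the 8 hepatocyte lists at 29 of 79.

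AGGTCA on either strand was found in 10.9% of weak windows, 11.7% at folds of 5 to 10, 16.6% at 10 to 15 and 26.0% of strong windows (46 of 177), where 14.7% of all windows held it. When the summit itself lay in the window, 17 of 44 strong windows held it (38.6%) and 38 of 362 weak ones (10.5%). CpG content moves with this count, and its part was not tested. Within a CpG class, among windows with a ratio under 0.4 AGGTCA was found in 27 of 60 strong (45.0%), 13 of 59 weak (22.03%) and 21.1% of all, and among the others in 19 of 117 strong (16.2%), 86 of 850 weak (10.1%) and 10.7% of all. AAGGTCA, which contains AGGTCA, was found in 6.78% of strong, 2.75% of weak and 4.03% of all windows. The extended element, chosen for the search after the other values were seen, was in 2 strong windows, those of Leo1 and Apoh, in 5 of the 3698 and in 32 of the 20085. AGGTCA repeated in the same direction with 2 bases between is the repeat that binds a REV-ERB dimer. Its exact letters were in none of the 20085, and those with 1 base between in 9. Copies with changed letters were not searched, so sites of that kind are not counted here.

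Other motifs were searched on both strands as well. The GC box GGGCGG was in 70.5% of weak and 55.9% of strong windows (47.0% of all), the E-box CACGTG, bound by BMAL1 and CLOCK among others, in 9.68% and 14.1% (7.89% of all), and the NRF1 motif in 2.53% and 1.13% (1.34% of all). CCAAT was in 41.1% and 45.8% (38.1% of all) and TATAAA in 6.49% and 11.9% (12.7% of all). TGTTTACA, a forkhead motif, was in 0.44% and 2.26% (1.06% of all), and TTATGTAA, a PAR bZIP motif, in 0.66% and 1.13% (0.906% of all). Motifs overlap where their letters allow it, and a match is a description of the window only.

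**Figure D5:**
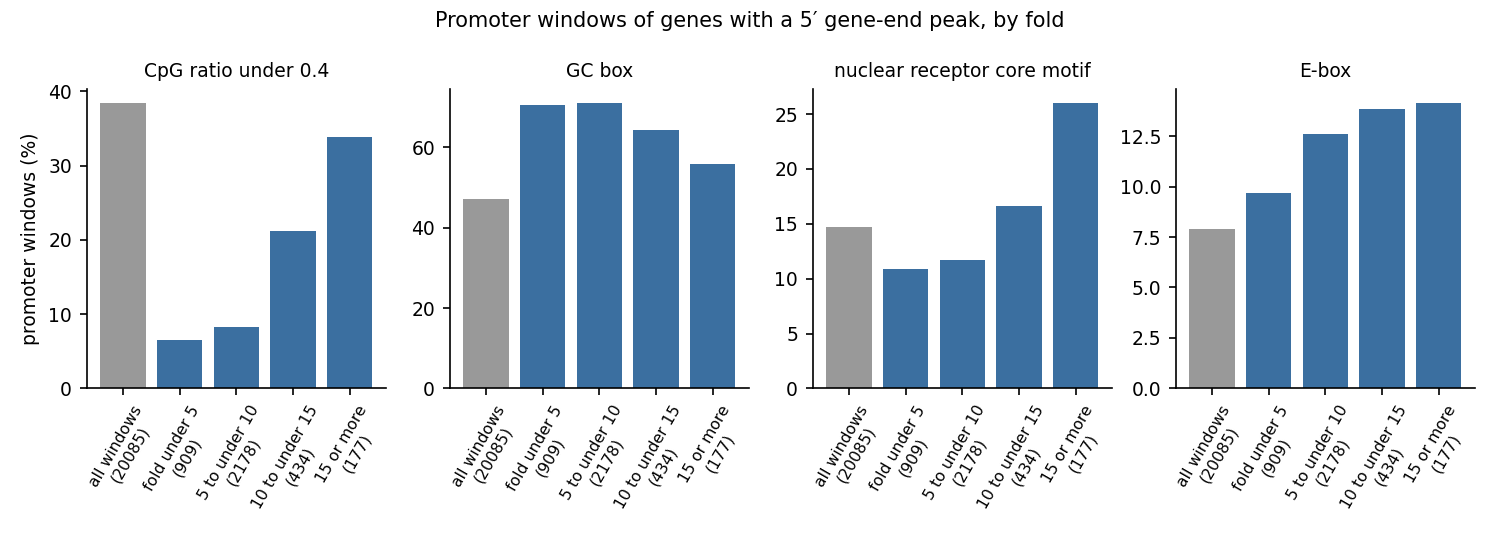
Share of promoter windows with a CpG ratio under 0.4, a GC box (GGGCGG), the nuclear receptor core motif (AGGTCA) and an E-box (CACGTG), for all windows (grey) and for genes with a 5′ gene-end peak by its fold (blue), with the number of windows below each bar. From weak to strong sites the low CpG share goes from 6.49% to 33.9% and AGGTCA from 10.9% to 26.0%, while the GC box goes from 70.5% to 55.9%.

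Peaks at 3′ ends were few. Their median fold was 6.26 (95% order-statistic interval 5.94 to 6.90), against 6.21 at 5′ ends, and 37 of 369 were strong (10.0%) against 190 of 3938 (4.82%). Among them were Banf2 at 32.3 and Hal at 26.0. Peaks stood at both ends of 177 genes, of which the 5′ fold was higher in 82 and the 3′ fold in 60 of the 143 with a known strand. Hal had the highest weaker fold of the pair, with 16.9 at its 5′ and 26.0 at its 3′ end. C4b, a complement gene whose strand was not in the table, had 17.4 and 15.9. F10, the gene of coagulation factor X, had 13.1 at its 5′ and 18.02 at its 3′ end, and Ctdsp1, a phosphatase gene, 13.6 and 14.5. At Atf3, as given above, the 5′ peak was the higher. The median length of the 177 genes was 16175 bp.

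Most gene-end peaks had other sites nearby. The median number of other ZT10 summits within 50 kb was 3, as for all other ZT10 peaks, and 14.3% of gene-end peaks had none against 9.65% of the others. A gene-end peak was the strongest within 50 kb in 35.9% of cases, near the 32.0% of all other ZT10 peaks. Among gene-end peaks this share was 26.5% for weak and 68.5% for strong sites, a measure that rises with fold by construction. At 3′ ends it was 21.1%, with 3.25% alone, and at 5′ ends 36.6%, with 14.9% alone.

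At ZT22, hour 22 of the cycle, the receptor is low. Of the 5375 gene-end peaks 3 were overlapped by one of the 36 ZT22 peaks. Of all 27622 ZT10 peaks on these chromosomes 24 were (0.0869%). The pools are 2 lists with 1 value each, so their folds are given side by side. Npas2 had folds of 77.7 at ZT10 and 7.17 at ZT22, with summits 11 bp apart, and widths of 12080 and 1014 bp. Loxl4, a lysyl oxidase gene, had 12.9 and 5.83 at a 5′ site 821 bp inside the gene, with summits 22 bp apart. The peak 933 bp beyond the 3′ end of Wls, which encodes a carrier of WNT proteins, had 4.24 and 5.66. Its interval was 238 bp wide at ZT10 and held 1487 fragments at the summit, on a local background 19.8 times the lowest at ZT10 and 18.6 times at ZT22, whereas at Npas2 and Loxl4 it was 1.01 and 1.00 times the lowest. All 3 summits lay over 500 bp from the gene end, so a reach of 500 bp left 0.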

How the data were processed

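ChIP-seq of mouse liver was analysed from 1 deposited peak list per time, made from 4 samples together, per the labels. MACS2 2.1.2, BWA 0.7.17, SAMtools 1.9, deepTools 3.3.0, Picard 2.18.12, bcl2fastq 2.17 and cutadapt 2.3 are listed, and mm10 as build, in the submitters' processing notes. Which library served as control: not given in the sources used here. The fold is a ratio of summit to local background and, like the −log10 p and −log10 q per peak, is the authors' deposited value, which ranks peaks in its own list only. The base positions and the score are deposited too; the score is 10 times the −log10 q and was not used. No peak had a fold below 4.

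The members and gene lists were chosen with earlier results of these data known. Summits were set against gene spans of RefSeq GRCm38.p6 (20665 protein-coding genes on chromosomes 1 to 19). Strand and starts came from RefSeq promoter windows, which cover 16457 of these genes and none on chromosome 18, where 141 peaks lie. Of 417 list entries 408 matched. Read totals are not in the lists, so depth was worked out: pileup and background were solved from the fold (pseudocount of 1) and the Poisson p, and the fragments came out whole, with a tolerance of 0.1, at 99.2% of summits. The pileup worth of 1 fragment was chosen for a high share of whole values, so that share is no separate check. Fragment counts cover counting error only. Reads shared by near-identical copies (Cyp, Serpina, Saa, Orm and ribosomal protein genes) may be split between them.

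Named are the 20 peaks of highest and 6 of lowest fold, the 5 widest and narrowest, those with a ZT22 peak, the 3 on each side of the 1 kb limit, the 5 genes with the highest weaker fold at both ends, and the 3 strongest and the weakest of each list (2 strongest for families taken by name). Some genes the rule takes are left out of the text. Other members of a list are named as further examples chosen after their values were seen. Exact Clopper-Pearson and order-statistic intervals are at 95%. They treat peaks as independent and leave out replicate spread. The extended response element, the CpG ratio and the last 2 sequences were chosen after the values were seen. Membership, motif search and the pileup solution were tested on simulated data. Python 3.11.15, numpy 2.4.6, pandas 2.3.3, scipy 1.17.1 and matplotlib 3.10.9 were used.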

Additional observations from a re-analysis of the deposited data

How the results depend on the processing

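No paired analysis was possible because each time has a single deposited list from 4 samples, which also means that no replicate could be left out. Values with no replicate spread were set against their own 95% interval, or, for counts, a factor of 1.5. The number of gene-end peaks stayed within that factor throughout (4015 to 6247). With a −log10 q of at least 10 the median fold was 7.18, strong sites 7.35% and the median width 2057 bp, since this limit takes out weak peaks. With a reach of 500 bp strong sites were 4.58%, the median width 1542 bp, summits inside the gene 58.3%, 5′ ends 94.0% and peaks with a ZT22 overlap 0. With a reach of 2 kb the median fold was 6.40, strong sites 6.88%, the median width 1721 bp and 5′ ends 87.5%. With genes of any type 5′ ends were 90.4%. With the middle of the interval the median width was 1593 bp, summits inside the gene 65.9% and ZT22 overlaps 1. With 1 peak per gene the width was 1683 bp and 5′ ends 93.1%. A fold limit of 10 gave 17.3% strong sites and one of 20 gave 2.18%. ZT22 overlaps numbered 1 with 50% of each peak covered. Of the 4307 summits at genes with a known strand, 88.0% had an annotated start of the same gene within 1 kb. This measure was chosen after seeing the data. AGGTCA was in 38.6% of strong windows with the summit in the window. Lists above all genes numbered 26, 26 and 27, and 17 of 68 shares of single lists left their interval. Fold limits of 5 and 15 are settings of this work, and peaks at the floor rest on 83 fragments.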

Other observations

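Among families taken by name, solute carrier genes had a gene-end peak at 83 of 324 (25.6%, against 24.5% of all protein-coding genes), with a median fold of 7.31 and 8 strong sites. The strongest were at the mitochondrial carrier genes Slc25a47 (25.3) and Slc25a48 (22.2). Zinc finger genes of the Zfp series had one at 107 of 360 (29.7%), with a median of 5.39, 3 strong and 41 weak, and the strongest were Zfp292 (22.8) and Zfp395 (22.1). Serpin genes, which encode protease inhibitors, had one at 12 of 62 (19.4%), with a median of 11.1 and 4 strong, led by Serpina11 (25.5). The whole cytochrome P450 family had one at 35 of 99, with a median of 10.1 and 7 strong, led by Cyp2j5 (21.5) and Cyp7a1 (20.4). Subunits of protein phosphatases and kinases had one at 43 of 99, with a median of 5.89, where Ppp1r3b (21.97) was strong and Prkab1, a subunit of AMPK, followed with 13.1.

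Gene length did not order the peaks. The correlation of fold with gene length was 0.0027 (Spearman's rho across 5375 peaks of 1 pooled list), and the median fold was 6.12 for genes under 5 kb and 6.30 for genes of 100 kb or more. By chromosome the share of strong sites ran from 2.51% on chromosome 7 (95% interval 1.16 to 4.72) to 8.65% on chromosome 17 (5.56 to 12.7), and local background was raised at 16.8% and 11.7% of their peaks.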
